A study of Mus musculus with 33 samples.

Results

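CD11b+ cells of mouse bone marrow were compared with CD3e T cells of the same tissue, across all genes of a raw read count table. The members were 6 of the 33 libraries in the series, 3 of CD11b+ cells and 3 of CD3e T cells, picked by their labels without use of any measured value. The series profiled polyadenylated RNA across 11 marrow populations, from stem cells to mature cells, to study epigenetic control of stem cell fate. Both populations here were mature fractions, stained and sorted by flow cytometry from marrow without the magnetic lineage depletion used for the stem and progenitor sorts. CD11b+ cells are named by a myeloid surface antigen, and CD3e T cells by a chain of the T cell receptor complex. No treatment or mutant allele is named for either group, and strain, sex, age, the number of animals and the remaining antibodies of the gates are not given in the sources used here. Whole marrow (BM, 3 libraries), for which no sort is named, is quoted where the makeup of a sort is described.

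CD11b is the alpha subunit of the integrin Mac-1, which neutrophils, monocytes, macrophages and some other leukocytes carry. In marrow most CD11b+ cells belong to the neutrophil lineage, which fills its granules in a fixed order (primary, secondary, then tertiary) as the cells mature. CD3 epsilon is 1 of the invariant chains that carry the signal of the T cell receptor, and marrow holds a small pool of mature T cells, many of them memory and regulatory cells. Both lineages share integrins, interferon response genes and much of their chromatin machinery.

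The libraries held 19727765, 27884194 and 19125441 counts for CD11b+ cells and 16782938, 25025642 and 16929527 for CD3e T cells. CPM here and below are counts scaled by library size and by a TMM factor, which adjusts for differences in library makeup. These factors were 0.7185 to 0.7293 for CD11b+ libraries and 1.106 to 1.108 for CD3e T cell libraries. Between 12610 and 12779 genes reached 1 CPM in CD11b+ libraries, against 13370 to 13391 in CD3e T cell libraries. The size of this gap depends on the scaling. The 10 most abundant genes took 21.7% to 21.9% of the counts in CD11b+ cells and 9.25% to 9.38% in CD3e T cells. Mitochondrial genes took 0.454% to 0.468% in CD11b+ cells and 1.79% to 1.8% in CD3e T cells, and the part of this gap in the results was not tested. Libraries of 1 population were close to each other. Pairs of them differed by a chi-square of 1.10 to 1.21 for each gene of moderate count, where pure counting noise gives about 1. The labels do not say that the libraries came from separate animals. The p-values therefore reflect only how far libraries of 1 population differ among themselves, with the spread estimated over all 33 libraries. That spread may be technical.

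The markers chosen for the comparison, Itgam, Ly6g and Cd3e, separated the groups in every library. Of their products, the labels name only CD11b and CD3e. Itgam, which encodes CD11b, had 400.2, 454 and 431 CPM in CD11b+ cells, against 34, 36.6 and 34.1 in CD3e T cells. That is a 12.2-fold higher level in CD11b+ cells (log2 fold change 3.61, standard error (SE) 0.051, edgeR adjusted p = 2.9e-38, n = 3 each). Ly6g, a surface antigen of neutrophils, had 840.2, 852 and 823 CPM in CD11b+ cells and 33.4, 31.9 and 35.1 in CD3e T cells, a 25.2-fold higher level. Cd3e had 2.3, 2.25 and 2.15 CPM in CD11b+ cells, against 201, 199 and 206 in CD3e T cells, and was 90.1-fold lower in CD11b+ cells (log2 fold change -6.49, SE 0.14, edgeR adjusted p = 3.6e-109). No marker overlapped between the groups, nor did at least 4391 genes higher and 3484 lower in CD11b+ cells, of 20464 tested. Whole marrow stood at 225 CPM for Itgam, 638 for Ly6g and 5.0 for Cd3e. CD3e T cells thus held 40.5 times the Cd3e level of whole marrow, yet these libraries also carried abundant transcripts of other cells, given below beside the results they touch. In sorted bulk samples, fewer cells of a type and less RNA per cell cannot be told apart.

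**Figure D1:**
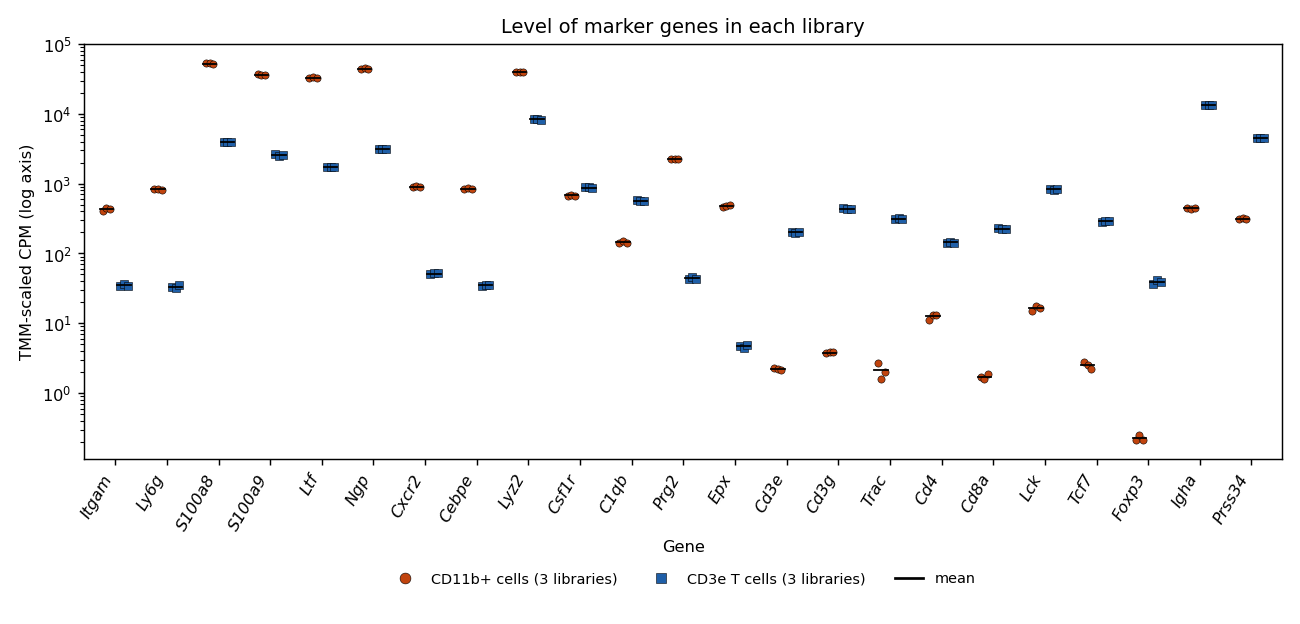
TMM-scaled CPM (log axis) of 23 marker genes in each library. Red circles are the 3 libraries of CD11b+ cells, blue squares the 3 of CD3e T cells, and black lines the means. Neutrophil genes such as Ngp stand higher in all CD11b+ libraries, T cell genes such as Trac lower, and Igha and Prss34, genes of plasma cells and basophils, are lower there too.

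Of 20464 genes tested, 7205 were higher in CD11b+ cells (35.2%) and 7705 lower (37.7%) at an edgeR adjusted p under 0.05. By 2-fold or more, 3826 were higher (18.7%) and 4574 lower (22.4%). Every count of list members below is to be read beside these shares. With so many genes passing, the direction and size of a change say more than the call. If libraries were scaled by their totals only, without TMM factors, the median log2 fold change shifted by -0.61 and the calls became 4104 higher and 11816 lower. The sign of a rise smaller than that shift therefore depends on the scaling, while falls become larger.

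**Figure D2:**
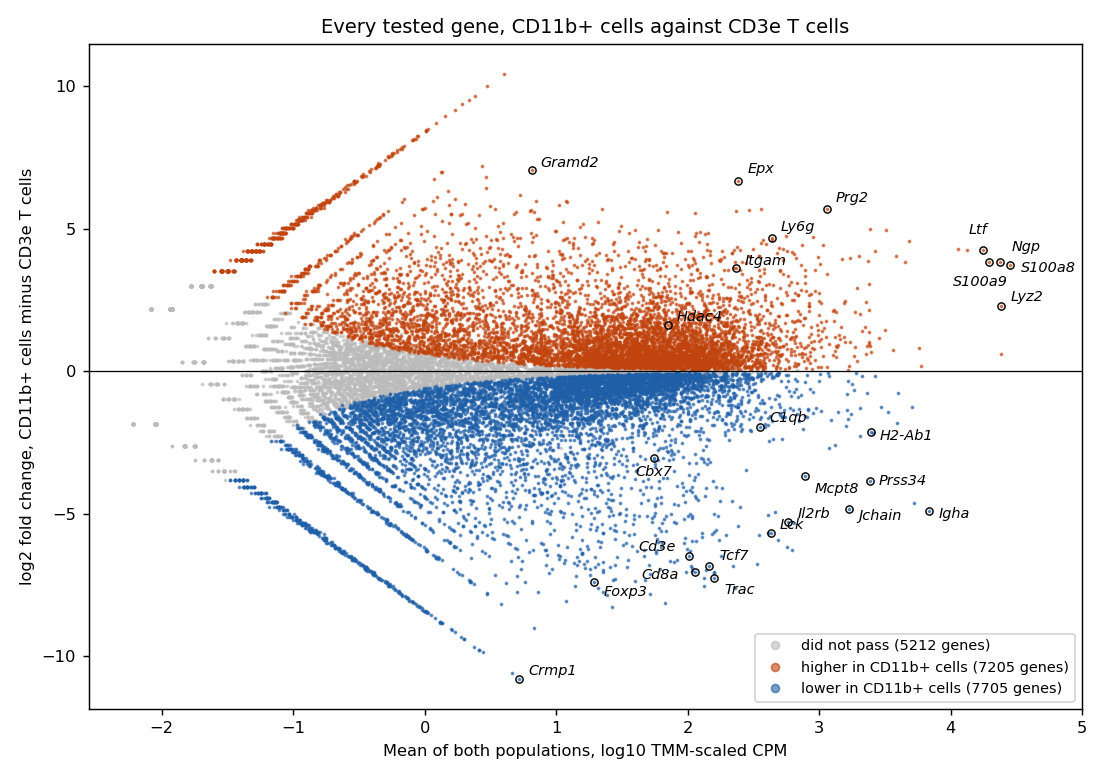
log2 fold change (CD11b+ cells minus CD3e T cells, vertical) against the mean level of both populations (log10 TMM-scaled CPM, horizontal) for each tested gene with a count in either population. Red genes passed as higher in CD11b+ cells, blue ones as lower, and grey ones did not pass. The oblique bands at low levels are genes with no or very few counts in 1 population, whose fitted fold is no bound.

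The 12 largest rises in CD11b+ cells among genes at 10 CPM or more included 4 eosinophil genes. Epx, eosinophil peroxidase, had 468, 486 and 488 CPM in CD11b+ cells and 4.8, 4.48 and 4.85 in CD3e T cells (103-fold higher, SE of the log2 fold change 0.091, edgeR adjusted p = 2.9e-121). Prg2, the eosinophil major basic protein, had 2224, 2270.1 and 2249.9 CPM in CD11b+ cells and 43.6, 45.3 and 42.9 in CD3e T cells (51-fold), and the eosinophil ribonuclease genes Ear1 and Ear6 were 52-fold and 49.4-fold higher, although reads may be split between these near copies. Il1f9, the interleukin-36 gamma gene, was at 570.2, 576 and 570.3 CPM in CD11b+ cells and 11.8, 10.3 and 12.2 in CD3e T cells (50.7-fold). Prok2, a chemoattractant peptide gene, was 56.7-fold higher (20.6 ± 1.8 CPM in CD11b+ cells against 0.359 ± 0.11 in CD3e T cells, mean ± SD, n = 3 each). The remaining names of the ranking, Gramd2 (131-fold), Gpr27 (62.5-fold), Rhov (61.8-fold), Tshr, the thyrotropin receptor (60.4-fold), Amer2 (51.5-fold) and Slc22a20 (49.7-fold), reached 12.7 ± 1.3 to 43.7 ± 2.0 CPM in CD11b+ cells.

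Among the 12 largest falls, 6 belong to known T cell programmes, namely Foxp3, Ctla4, Trac, Themis, Cd8a and Cd8b1. Foxp3, the transcription factor of regulatory T cells, had 0.209, 0.25 and 0.215 CPM in CD11b+ cells and 36.4, 41 and 38.9 in CD3e T cells (167-fold lower, SE of the log2 fold change 0.45, edgeR adjusted p = 1.4e-75). Ctla4, an inhibitory receptor of activated and regulatory T cells, was 146-fold lower, with 27.9 ± 0.77 CPM in CD3e T cells. Crmp1 had no count in CD11b+ cells and 10.7, 10.4 and 10.3 CPM in CD3e T cells, which makes it at least 168-fold lower when the floor is set at 3 counts for the CD11b+ libraries together. Tdrp (229-fold), Slc6a19, a neutral amino acid transporter gene (214-fold), Nsg2 (159.6-fold) and Camk4, a calcium-dependent kinase gene (141-fold), were lower on 10, 10, 16 and 12 reads in all CD11b+ libraries together. Aqp3, an aquaporin gene, had 3 reads in CD11b+ cells and 11.9, 11.1 and 11.8 CPM in CD3e T cells.

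Neutrophil granule genes were higher in CD11b+ cells almost without exception, and were present in the CD3e T cell libraries at a lower level. Of 15 secondary and tertiary granule genes tested, 14 were higher in CD11b+ cells and 1 lower, beside 35.2% of all genes tested that were higher. Their median log2 fold change was 4.19, against -0.02 over all genes. Ngp, neutrophilic granule protein, had 44176, 44952 and 44496 CPM in CD11b+ cells and 3143, 3160.2 and 3161 in CD3e T cells, 14.1-fold higher (SE of the log2 fold change 0.095, edgeR adjusted p = 1.3e-20). Ltf, lactoferrin, an iron-binding protein of secondary granules, had 32790, 33554 and 33200 CPM in CD11b+ cells and 1734, 1746 and 1732 in CD3e T cells (19.1-fold). Camp, the cathelicidin antimicrobial peptide gene, was 19.6-fold higher, the chitinase-like gene Chil3 18.8-fold and Lcn2, the siderophore-binding lipocalin, 14.3-fold. Of the matrix metalloproteinases, the gelatinase gene Mmp9 was 18.3-fold higher (5018 ± 67 CPM in CD11b+ cells against 274 ± 3.5 in CD3e T cells) and the collagenase gene Mmp8 31.9-fold (4746 ± 46 CPM in CD11b+ cells against 149 ± 3.4 in CD3e T cells). The exception was Arg1, arginase, at 0.279, 0.20 and 0.287 CPM in CD11b+ cells and 1.02, 1.73 and 1.87 in CD3e T cells, low in both.

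Primary granule genes, the earliest set, were higher in 7 of 8 tested (median 3.29), beside 35.2% of all genes tested. Mpo, myeloperoxidase, had 4281, 4303 and 4294 CPM in CD11b+ cells and 531, 516 and 513 in CD3e T cells (8.26-fold), and Elane, neutrophil elastase, 4346, 4429.7 and 4329.9 CPM in CD11b+ cells and 304, 304 and 297 in CD3e T cells (14.5-fold). Ctsg, cathepsin G, was 3.93-fold higher, the least of the 7. Ctsc, the protease that activates granule serine proteases and also the granzymes of cytotoxic lymphocytes, was the 1 member lower in CD11b+ cells (478 ± 2.7 CPM in CD11b+ cells against 506 ± 11 in CD3e T cells, log2 fold change -0.08, edgeR adjusted p = 0.0019). Bpi was not tested, since it fell under the filter on low counts.

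Receptors and cytosolic proteins of mature neutrophils were higher in 19 of 20 (median 4.12). S100a8, whose product pairs with that of S100a9 as calprotectin, had 53820, 52871 and 51061 CPM in CD11b+ cells and 3972, 3961 and 3905 in CD3e T cells (13.3-fold higher). S100a9 had 37528, 36044 and 36285 CPM in CD11b+ cells and 2663, 2521 and 2594 in CD3e T cells (14.1-fold). The granulocyte colony-stimulating factor receptor gene Csf3r was 13.2-fold higher (1349 ± 22 CPM in CD11b+ cells against 102 ± 4.6 in CD3e T cells), and Cxcr2, the chemokine receptor of neutrophil release, 17.6-fold. Padi4, which citrullinates histones in neutrophil extracellular trap formation, was 19.3-fold higher, and Trem1, an amplifier of inflammatory signals, 24.2-fold. Cxcr4, the marrow retention receptor that both lineages use, had 13.3, 13.5 and 11.3 CPM in CD11b+ cells and 11.5, 12.1 and 12.4 in CD3e T cells, overlapped between the groups and did not pass (edgeR adjusted p = 0.33).

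Most neutrophil genes of the CD3e T cells stood at a small share of their level in CD11b+ cells. The median share was 5.47% for secondary and tertiary granule genes, 5.73% for mature neutrophil genes and 10.4% for primary granule genes. Single values were 5.24% for Ltf, 7.08% for Ngp, 7.5% for S100a8, 5.68% for Cxcr2, 8.15% for Itgam and 3.99% for Ly6g. Eosinophil genes stood lower, at 0.98% for Epx and 1.95% for Prg2. The part of neutrophil RNA in other differences between the sorts was not tested.

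The 250 bases before the start site are shown for the neutrophil genes Ngp and S100a9 and the T cell genes Cd3e and Cd3d. The windows of S100a8, Camp, Cd3g and Cd247 were read as well and are not shown. The sequences are from RefSeq (GRCm38.p6), 5′ to 3′ on the gene's own strand, and capitals mark matches to 4 short motifs on either strand. The motifs were TTGCNNAA for C/EBP factors, GAGGAA for PU.1, TGTGGT for RUNX factors and CTTTGA for TCF1 and LEF1. Ngp lies at chr9:110419558-110419807 (plus strand), S100a9 at chr3:90695722-90695971 (minus), Cd3e at chr9:45009612-45009861 (minus) and Cd3d at chr9:44981536-44981785 (plus).
Ngp: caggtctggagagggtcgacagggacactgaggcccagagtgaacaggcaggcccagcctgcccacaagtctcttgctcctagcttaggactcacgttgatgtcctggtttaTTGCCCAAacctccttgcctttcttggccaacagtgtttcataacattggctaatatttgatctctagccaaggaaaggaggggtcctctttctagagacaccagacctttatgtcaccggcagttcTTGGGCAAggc
S100a9: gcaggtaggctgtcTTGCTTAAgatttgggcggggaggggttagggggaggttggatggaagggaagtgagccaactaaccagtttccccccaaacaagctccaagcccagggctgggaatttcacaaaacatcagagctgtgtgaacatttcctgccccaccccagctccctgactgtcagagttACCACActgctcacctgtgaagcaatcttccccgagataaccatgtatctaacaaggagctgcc
Cd3e: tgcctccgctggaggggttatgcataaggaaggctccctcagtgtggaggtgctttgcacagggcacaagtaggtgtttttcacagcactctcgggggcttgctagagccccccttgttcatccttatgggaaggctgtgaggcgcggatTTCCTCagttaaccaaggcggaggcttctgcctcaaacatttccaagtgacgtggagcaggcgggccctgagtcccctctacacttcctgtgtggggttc
Cd3d: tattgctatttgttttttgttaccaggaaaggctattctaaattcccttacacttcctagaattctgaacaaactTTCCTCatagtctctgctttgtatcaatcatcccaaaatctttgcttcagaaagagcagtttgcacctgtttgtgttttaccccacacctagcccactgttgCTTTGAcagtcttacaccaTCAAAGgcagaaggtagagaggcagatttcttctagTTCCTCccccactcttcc
Ngp held 2 C/EBP matches, S100a9 a C/EBP and a RUNX match, Cd3e a PU.1 match, and Cd3d 2 PU.1 and 2 TCF1 and LEF1 matches. None of these overlapped another. Of the windows not shown, S100a8 held 2 PU.1 matches, Cd247 a C/EBP match, and Camp and Cd3g no match. Such letters are common: the C/EBP motif stood in 9.26% of windows of genes higher in CD11b+ cells by 2-fold or more, 8.36% of those lower by 2-fold or more, and 7.86% of all 12509 tested genes with a window. In the same 3 sets and order, the shares for PU.1 were 23.7%, 25.9% and 23.2%, for RUNX 11.3%, 13.4% and 11.5%, and for TCF1 and LEF1 12.4%, 11.6% and 11.5%. Over every window in the table they were 9.55%, 23.1%, 14.2% and 14% in the order above. A match is a description of letters, not of a bound site.

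Of 13 listed myeloid transcription factors, 10 were higher (median 1.31), 2 lower and 1 did not pass. Among all genes tested, 35.2% were higher and 37.7% lower. Scaled by library totals only, 8 of the 13 passed as higher and 4 as lower (median 0.7). Cebpe, the C/EBP factor of secondary granule genes, had 827, 858 and 851 CPM in CD11b+ cells and 34.4, 35 and 34.9 in CD3e T cells, 24.3-fold higher (SE of the log2 fold change 0.041, edgeR adjusted p = 2e-96). Cebpd was 14-fold and Cebpb 12-fold higher, while Cebpa, the factor of early myeloid commitment, was 1.78-fold higher at 14.8 ± 1.6 CPM in CD11b+ cells against 8.24 ± 0.36 in CD3e T cells. Spi1, which encodes PU.1, had 1407, 1429 and 1399.9 CPM in CD11b+ cells and 273, 269 and 270.3 in CD3e T cells (5.22-fold). Irf8, a monocyte and dendritic cell factor, stood at 263, 266 and 255 CPM in CD11b+ cells and 259.6, 255 and 252 in CD3e T cells and did not pass. Id2 (191 ± 2.0 CPM in CD11b+ cells against 272 ± 8.9 in CD3e T cells) and Junb (1127 ± 5.4 CPM in CD11b+ cells against 1262 ± 25 in CD3e T cells) were lower in CD11b+ cells.

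Effector genes of phagocytes were mostly higher in CD11b+ cells. All 6 genes of the phagocyte NADPH oxidase, which makes superoxide, were higher in CD11b+ cells by 2-fold or more (median 2.45), from Ncf1, a cytosolic subunit, at 8.61-fold to the GTPase gene Rac2 at 2.25-fold (3951 ± 54 CPM in CD11b+ cells against 1753 ± 9.2 in CD3e T cells). Of 19 pattern recognition receptor genes 15 were higher (median 1.25). The C-type lectin genes Clec4d and Clec4e were 18.7-fold and 14.4-fold higher and Tlr2, the lipoprotein sensor, 3.27-fold. Tlr1, its partner, was 3.79-fold lower in CD11b+ cells, with 12.3, 13.5 and 15.6 CPM there and 50.4, 52.7 and 53.1 in CD3e T cells. Tlr9 and Clec4n were also lower, by 2.31-fold and 2.01-fold. Fc and complement receptors were mixed, 7 of 12 higher and 5 lower, beside 35.2% higher and 37.7% lower of all genes tested. C5ar1, the receptor of the complement fragment C5a, was 15.5-fold higher (1242 ± 46 CPM in CD11b+ cells against 80.2 ± 2.5 in CD3e T cells) and Fcgr3 4.34-fold, whereas C3ar1, the C3a receptor, was 4.09-fold lower and Itgax, which encodes CD11c, 2.97-fold lower.

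Monocyte and macrophage genes split between the sorts. Of 20 tested, 9 were higher in CD11b+ cells, 10 lower and 1 did not pass (median -0.12), beside 35.2% higher and 37.7% lower of all genes tested. When scaled by library totals only, 3 of the 20 changed sign. Lyz2, lysozyme, which neutrophils also make, had 40321, 40083 and 40175 CPM in CD11b+ cells and 8391, 8380.4 and 8230.5 in CD3e T cells (4.82-fold higher). Fn1, fibronectin, was 11.7-fold, F13a1, a coagulation factor subunit of monocytes, 5.88-fold, and Ly6c2, an antigen of inflammatory monocytes, 2.01-fold higher. Csf1r, the receptor that monocytes and macrophages need to survive, had 675, 689.8 and 668 CPM in CD11b+ cells, against 889, 885 and 869 in CD3e T cells (log2 fold change -0.38, edgeR adjusted p = 3.3e-12). The complement genes of tissue macrophages C1qa, C1qb and C1qc were 3.63-fold, 3.93-fold and 3.52-fold lower in CD11b+ cells, and C1qb stood at 142, 151 and 141 CPM there and 578, 565 and 567 in CD3e T cells. Axl, a receptor for apoptotic cells, and Mrc1, the mannose receptor, were 2.79-fold and 2.5-fold lower. Adgre1, which encodes F4/80, had 174 ± 2.7 CPM in CD11b+ cells and 211 ± 1.9 in CD3e T cells.

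The list of basophil, mast cell and eosinophil genes divided by lineage. Its 6 eosinophil genes (Prg2, Prg3, Epx, Ear6, Ccr3 and Siglecf) were higher in CD11b+ cells, and its 7 basophil and mast cell genes lower. Prss34, a basophil protease gene, had 309.8, 319.5 and 308 CPM in CD11b+ cells and 4518, 4525 and 4528 in CD3e T cells, 14.5-fold lower (SE of the log2 fold change 0.049, edgeR adjusted p = 1.4e-27). Mcpt8, another basophil protease gene, was 12.9-fold lower (113 ± 2.8 CPM in CD11b+ cells against 1457 ± 14 in CD3e T cells), Gata2, a factor of these cells, 8.02-fold and Fcer1a, a chain of the high-affinity IgE receptor, 9.41-fold. Whole marrow held 787 CPM of Prss34, below the CD3e T cells and above the CD11b+ cells. Il4 was low in both, at 5.49 ± 0.69 CPM in CD11b+ cells and 7.26 ± 0.70 in CD3e T cells.

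On the T cell side, all 8 tested chains of the T cell receptor and CD3 complex were lower in CD11b+ cells by 2-fold or more, beside 22.4% of all genes tested (median -6.63). Cd3g had 3.69, 3.85 and 3.87 CPM in CD11b+ cells and 445, 434 and 429.8 in CD3e T cells (114-fold), and Cd247, the zeta chain, 1.95, 1.55 and 2.15 CPM in CD11b+ cells and 211, 206 and 211 in CD3e T cells (113-fold). Trac, the constant region of the receptor alpha chain, had 2.72, 1.6 and 2.01 CPM in CD11b+ cells, against 307, 317 and 314 in CD3e T cells (152-fold, SE of the log2 fold change 0.15, edgeR adjusted p = 4.2e-115). The beta chain constant genes Trbc1 and Trbc2, near copies whose reads can be split, were 90.4-fold and 108-fold lower, and Trdc, of the delta chain, 74.8-fold (0.419 ± 0.21 CPM in CD11b+ cells against 30.1 ± 2.1 in CD3e T cells). Cd3d differed least, at 16.2, 19.3 and 17.9 CPM in CD11b+ cells and 482, 486 and 489 in CD3e T cells (27-fold). Its level in CD11b+ cells was close to the 16.2 CPM of whole marrow, while Cd3e stood at 2.23 ± 0.075 CPM in CD11b+ cells and 5.0 in whole marrow. Of 82 variable segments of the receptor chains tested, 81 were lower in CD11b+ cells and 1 higher, with a median log2 fold change of -6.57. Their separate values are uncertain because related segments can share reads.

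All 15 coreceptors and costimulatory receptors were lower by 2-fold or more (median -5.67), beside 22.4% of all genes tested. Cd8a and Cd8b1, the chains of the coreceptor for MHC class I, were 133-fold and 134-fold lower, with 1.67, 1.6 and 1.87 CPM of Cd8a in CD11b+ cells and 229, 224 and 226 in CD3e T cells. Cd4, the class II coreceptor, which some macrophages and dendritic cells also carry, had 11.2, 13.3 and 13.3 CPM in CD11b+ cells and 143, 147 and 142 in CD3e T cells (11.4-fold). Cd5, a brake on receptor signalling, was 131-fold lower, and Cd28, the main costimulatory receptor, 49.2-fold. Slamf6, a receptor of lymphocyte contacts, was 13.1-fold lower.

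Of 18 genes of proximal receptor signalling, 17 were lower (median -4.96). Lck, the kinase that phosphorylates the CD3 chains, had 15.2, 17.6 and 16.3 CPM in CD11b+ cells and 847, 821 and 847 in CD3e T cells (50.7-fold). Zap70, the kinase that binds them, was 56.5-fold, Lat, the membrane adaptor, 52-fold and Themis, an adaptor of T cell selection, 140.0-fold lower. The 1 member on the other side was Lcp2, which encodes the adaptor SLP-76 and is used by neutrophils and platelets as well. It had 406, 411 and 415 CPM in CD11b+ cells and 371, 365 and 361 in CD3e T cells (log2 fold change 0.17), and the sign changed when scaled by library totals only (-0.44).

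T lineage transcription factors were lower in 14 of 15 (median -5.14). Tcf7, which encodes TCF1, a factor of T cell specification and memory, had 2.79, 2.55 and 2.22 CPM in CD11b+ cells and 279, 293 and 290.1 in CD3e T cells (114-fold). Bcl11b, the T cell commitment factor, was 117-fold, Gata3 41.8-fold and Tbx21, the factor of type 1 responses, 35.2-fold lower. Ets1, which several blood lineages express, differed by 1.88-fold. Zbtb7b, the factor of the CD4 lineage, was the exception, at 53, 52.3 and 52 CPM in CD11b+ cells and 18.4, 17.9 and 18.4 in CD3e T cells, 2.88-fold higher in CD11b+ cells.

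Homing and cytokine receptor genes of T cells were lower in 13 of 14 (median -4.57), beside 37.7% of all genes tested. Il2rb, a chain shared by the interleukin-2 and interleukin-15 receptors, had 28.2, 31.2 and 27.2 CPM in CD11b+ cells and 1144, 1136 and 1124 in CD3e T cells (38.9-fold). Ccr7, the lymph node homing receptor, was 53.1-fold lower, Cxcr3, a receptor of effector and memory cells, 50.5-fold and S1pr1, the receptor of tissue exit, 23.6-fold. Klf2, which controls S1pr1 in T cells, ran the other way, with 130.4, 128 and 126 CPM in CD11b+ cells and 72.7, 64.6 and 66.5 in CD3e T cells. Of 18 cytotoxic and NK cell genes 16 were lower, and Gzma and Klra8 did not pass (median -4.47). Ccl5, a chemokine of memory and cytotoxic cells, had 22.4, 25.4 and 23.7 CPM in CD11b+ cells and 777, 792 and 791 in CD3e T cells (32.8-fold), Ctsw was 42.9-fold and Prf1, perforin, 9.71-fold lower. The NK receptor genes Ncr1 (5.23-fold) and Klrb1c (23.2-fold) were lower too, at 39.8 ± 2.6 and 96.1 ± 0.80 CPM in CD3e T cells. Gzma, granzyme A, stood at 14.1, 14.2 and 11.5 CPM in CD11b+ cells and 12.6, 11.6 and 12.5 in CD3e T cells, overlapping between the groups.

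**Figure D3:**
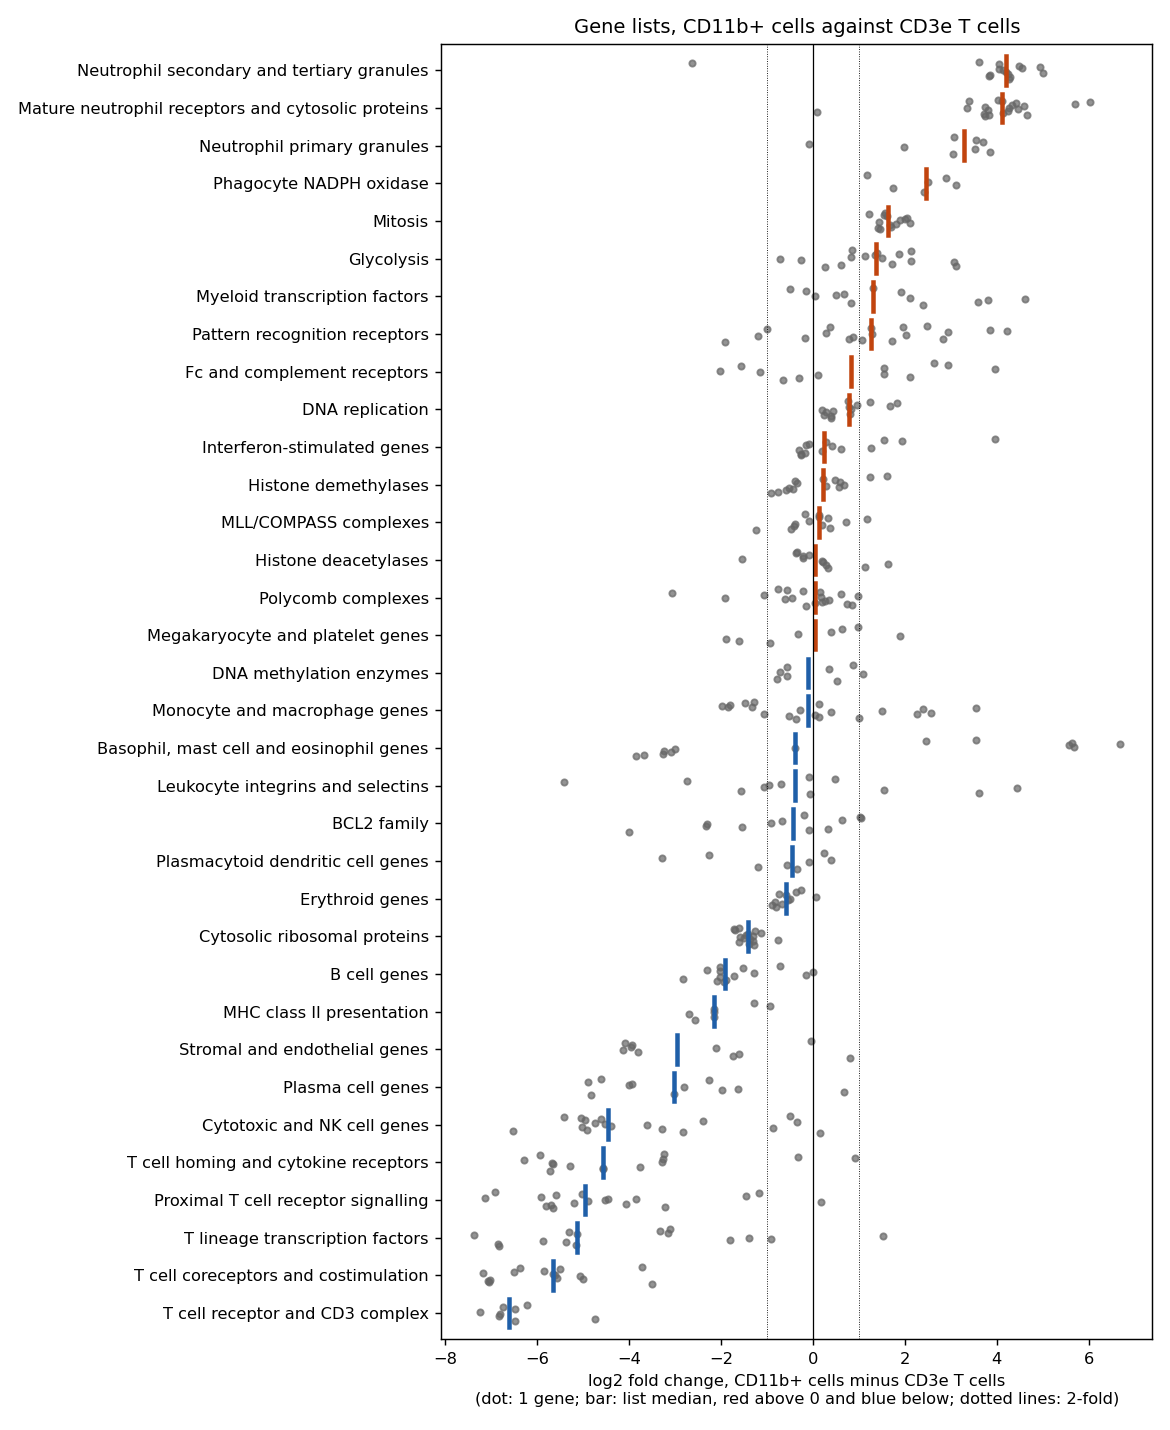
log2 fold change (CD11b+ cells minus CD3e T cells, horizontal) of the tested members of each of 34 gene lists (rows, ordered by median). A dot is 1 gene, a bar the list median, and dotted lines mark 2-fold. The neutrophil lists lie at the top and the T cell lists at the bottom, and the basophil, mast cell and eosinophil list falls into separate groups of dots.

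Genes of several further cell types, plasma cells and basophils first, were mostly lower in CD11b+ cells than in CD3e T cells. Igha, the heavy chain constant region gene of immunoglobulin A, had 445, 440.4 and 445 CPM in CD11b+ cells and 13355, 13375 and 13218 in CD3e T cells, 30.0-fold lower in CD11b+ cells (SE of the log2 fold change 0.08, edgeR adjusted p = 1.1e-24), and whole marrow stood at 1484. Jchain, which joins secreted antibody, was 28.3-fold and the kappa light chain gene Igkc 24.5-fold lower. In all, 10 of 11 plasma cell genes were lower and 1, Xbp1, the secretory stress factor, was higher (581 ± 7.8 CPM in CD11b+ cells against 366 ± 6.3 in CD3e T cells). Immunoglobulin genes took 0.152% to 0.155% of the counts in CD11b+ cells, 4.37% to 4.43% in CD3e T cells and 0.649% to 0.66% in whole marrow. T cell receptor genes took 0.00181% to 0.0019% in CD11b+ cells, 0.231% to 0.234% in CD3e T cells and 0.00471% to 0.00493% in whole marrow.

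B cell genes were lower in 12 of 14 (median -1.92), among them Ms4a1, which encodes CD20, at 19.6, 18.1 and 18.6 CPM in CD11b+ cells and 131, 130.4 and 140.1 in CD3e T cells, and Cd79a, a signalling chain of the B cell receptor, at 4.28-fold. All 7 MHC class II genes were lower (median -2.15), with 929, 950.0 and 922 CPM of Cd74, the invariant chain, in CD11b+ cells and 4206, 4213 and 4162 in CD3e T cells. Stromal and endothelial genes were lower in 8 of 10 and higher in 1. Cxcl12, the retention chemokine of marrow stroma, had 14.8, 15.6 and 13.7 CPM in CD11b+ cells and 207, 211 and 206 in CD3e T cells (14-fold). Erythroid genes differed less, with 10 of 11 lower (median -0.60) and Hbb-bs, a beta globin gene with a near copy, at 1180.5 ± 9.96 CPM in CD11b+ cells against 2071 ± 37 in CD3e T cells and 33548 in whole marrow. Of 8 plasmacytoid dendritic cell genes 6 were lower (median -0.46), and of 8 megakaryocyte and platelet genes 2 were higher, 3 lower and 3 did not pass. Beside these counts stand 35.2% higher and 37.7% lower of all genes tested.

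Summed over a list, T cell receptor and CD3 genes ran from 37.1 to 39.2 CPM in CD11b+ cells and 2680 to 2710 in CD3e T cells. Plasma cell genes ran from 2240 to 2310 CPM in CD11b+ cells and from 30200 to 30800 in CD3e T cells. Secondary and tertiary granule genes ran from 162000 to 166000 CPM in CD11b+ cells and from 9250 to 9360 in CD3e T cells. None of the plasma cell, B cell, basophil or stromal genes listed was at 0 in either population. The part of these cell types in any difference reported here was not tested.

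**Figure D4:**
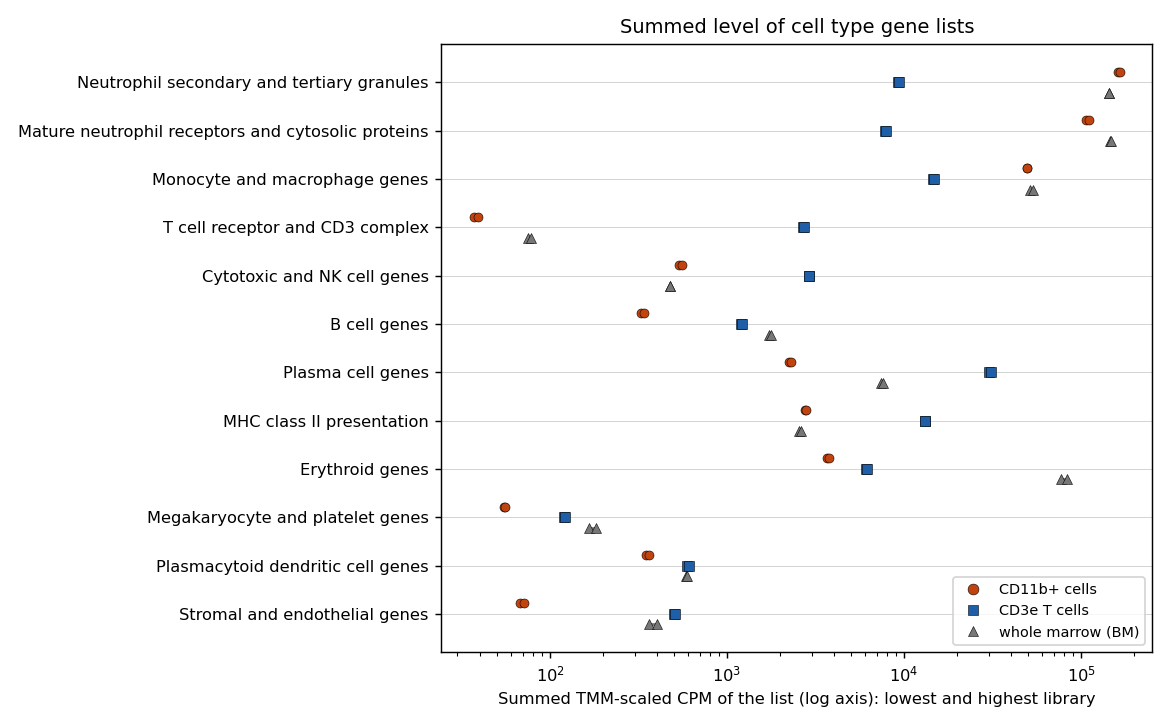
Summed TMM-scaled CPM (log axis) of 12 cell type gene lists, given as the lowest and highest of 3 libraries. Red circles are CD11b+ cells, blue squares CD3e T cells and grey triangles whole marrow. CD3e T cells stand above whole marrow for T cell receptor, cytotoxic, plasma cell, MHC class II, and stromal and endothelial lists. CD11b+ cells stand above CD3e T cells for the neutrophil lists and for the monocyte and macrophage list. The sum of the latter is mostly Lyz2, and 9 of its 20 genes were higher and 10 lower in CD11b+ cells.

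Mitosis genes were higher in CD11b+ cells, while the direction of some replication genes depended on the scaling. All 14 mitosis genes passed by 2-fold or more (median 1.63). Mki67, the proliferation antigen Ki-67, had 208, 210.0 and 202 CPM in CD11b+ cells and 79.6, 74 and 74.8 in CD3e T cells (2.73-fold), Plk1, a kinase of mitotic entry, was 4.12-fold and Bub1, a spindle checkpoint kinase, 4.3-fold higher. Of the 14 replication genes, 14 were higher (median 0.77), 3 of them by 2-fold or more, beside 18.7% of all genes tested. Scaled by library totals only, 6 changed sign, with 7 passing as higher and 6 as lower (median 0.16). Rrm2, a subunit of ribonucleotide reductase, was 3.56-fold higher (418 ± 17 CPM in CD11b+ cells against 117 ± 7.7 in CD3e T cells). Whole marrow stood at 381 CPM of Mki67, above both sorts.

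Metabolic and translation genes moved apart as well. Glycolysis genes were higher in 14 of 16 (median 1.37, or 0.76 when scaled by library totals only). Slc2a3, a glucose transporter, had 1069, 1103 and 1084 CPM in CD11b+ cells and 126, 125 and 125 in CD3e T cells (8.65-fold), Hk3, a hexokinase of myeloid cells, was 8.43-fold and Pkm, pyruvate kinase, 4.37-fold higher. The liver-type and platelet-type phosphofructokinase genes Pfkl and Pfkp were lower (-0.27 and -0.73 on the log2 scale). All 16 listed cytosolic ribosomal protein genes were lower in CD11b+ cells (median -1.41), Rplp0 at 1159.9, 1182 and 1171 CPM there and 2907, 2919 and 2869 in CD3e T cells. Ribosomal protein genes took 1.2% to 1.22% of all counts in CD11b+ cells and 4.89% to 4.96% in CD3e T cells. Many have processed pseudogenes that can take reads.

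Chromatin regulators, the subject of the series, showed no common direction under TMM scaling. The medians of the 5 lists lay between -0.10 (DNA methylation enzymes) and 0.22 (histone demethylases), near the -0.02 of all genes, and those above 0 became negative when scaled by library totals only. Under TMM scaling, 35.2% of all genes tested were higher and 37.7% lower. Polycomb genes were 8 higher, 8 lower and 3 not passing, and MLL/COMPASS genes 7 higher and 6 lower. Demethylases were 8 and 7, deacetylases 6 and 5, and DNA methylation enzymes 4 and 4. Scaled by library totals only, most were lower, with 3 higher and 15 lower for Polycomb genes, 1 higher and 11 lower for MLL/COMPASS genes, 2 higher and 10 lower for demethylases, 2 higher and 10 lower for deacetylases and 2 higher and 6 lower for DNA methylation enzymes. Most members differed by less than 2-fold. Cbx7, a reader subunit of Polycomb repressive complex 1, had 12.1, 11.7 and 11.5 CPM in CD11b+ cells, against 100.5, 97 and 98.2 in CD3e T cells (8.35-fold lower, SE of the log2 fold change 0.065, edgeR adjusted p = 2.1e-83). Bmi1, a core subunit of the same complex, was 3.76-fold lower (4.14 ± 0.52 CPM in CD11b+ cells against 15.6 ± 0.85 in CD3e T cells) and Cbx2 2.09-fold. Ezh2, the methyltransferase of Polycomb repressive complex 2, was 1.79-fold higher (50.3 ± 1.2 CPM in CD11b+ cells against 28.1 ± 0.64 in CD3e T cells).

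Among the methyltransferase complexes that mark active genes, Kmt2a was 2.37-fold lower (22.3 ± 0.27 CPM in CD11b+ cells against 53.1 ± 2.2 in CD3e T cells) and Wdr5, a shared core subunit, 2.27-fold higher. The demethylase genes Kdm7a and Kdm6b were 3.06-fold and 2.36-fold higher. Class IIa deacetylases were split, Hdac4 3.08-fold higher (106 ± 3.6 CPM in CD11b+ cells against 34.6 ± 1.1 in CD3e T cells) and Hdac7 2.92-fold lower (20.7 ± 0.24 CPM in CD11b+ cells against 60.6 ± 0.39 in CD3e T cells). Hdac2 was 2.2-fold higher. Uhrf1, which guides maintenance methylation at replication, was 2.13-fold higher, while Dnmt3a, a de novo methyltransferase gene, stood at 23.5 ± 1.5 CPM in CD11b+ cells against 40.3 ± 0.27 in CD3e T cells (log2 fold change -0.78).

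**Figure D5:**
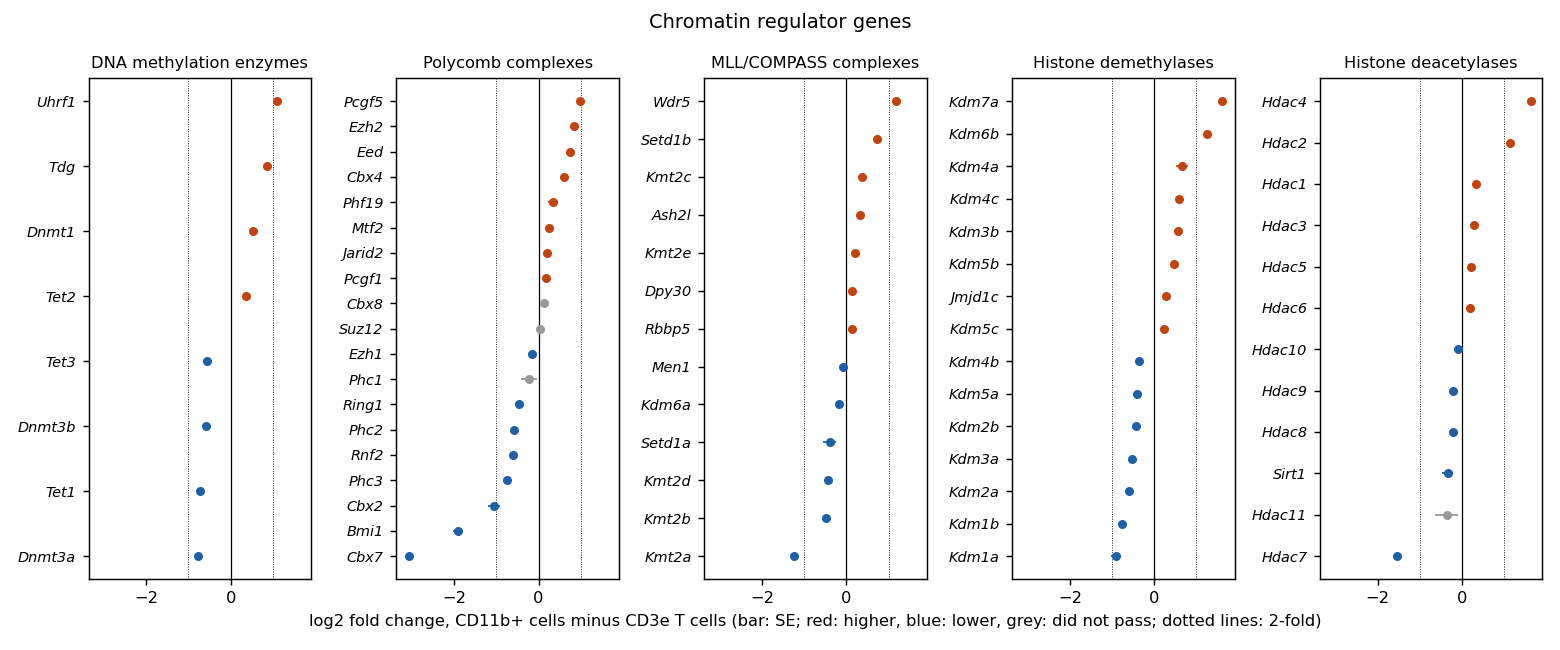
log2 fold change (CD11b+ cells minus CD3e T cells, horizontal) with its SE for the tested chromatin regulator genes of 5 lists. Red genes passed as higher, blue as lower, grey did not pass, and dotted lines mark 2-fold. Most genes lie within 2-fold, with Cbx7 the farthest at -3.06.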

How the data were processed

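The deposited table holds raw read counts per gene ID. Named in the submitters' processing notes, with no order or role, are cutadapt, HISAT2, HTSeq, DESeq2, and build mm39. Versions, annotation release and strand setting are not given in the sources used here, so reads of overlapping genes cannot be told apart. Each of the 33 columns matched 1 library by name. Of 56748 IDs, 52073 found a symbol in GENCODE M21, as did 450 of 451 list entries.

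Genes passing filterByExpr were normalised with TMM factors and fitted by edgeR 4.0.16 (R 4.3.3; glmQLFit, robust) over all 33 libraries, 1 mean for each population, leaving 22 residual degrees of freedom. CD11b+ cells minus CD3e T cells was the contrast, Benjamini-Hochberg adjusted over 20464 genes, threshold 0.05. Levels are TMM-scaled CPM, per library or as mean ± SD (n = 3), not corrected for length. The fit was tested on simulated data in which few genes were changed between these populations, so the scaling was not tested there.

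The comparison and lists were chosen with earlier results of these data known, so lists have counts and medians and no test. The rule for names took the 12 largest rises and falls, the markers Itgam, Ly6g and Cd3e, and the T cell receptor list. It added up to 6 members per other list with the highest level, plus those past 2-fold against their list. Rises and falls needed adjusted p under 0.05, at least 10 CPM in the higher group and no overlap between libraries. Predicted, mitochondrial, ribosomal and receptor segment genes were left out of them. Chosen after their values were seen were Adgre1, Axl, Bcl11b, Bcl2a1a, Bcl2a1b, Bcl2a1d, Bmi1, Bpi, Bub1, C1qa, C1qb, C1qc, Cbx2, Cd28, Cd4, Cd5, Cebpa, Cebpb, Cxcr2, Cxcr4, Ezh2, Fcer1a, Gata2, Gata3, Gzma, Hk3, Ifit1, Il4, Irf8, Itga4, Itgae, Kdm6b, Klf2, Klra8, Klrb1c, Mmp8, Mmp9, Mrc1, Mx1, Ncr1, Padi4, Pfkl, Pfkp, Plk1, Prf1, Slc2a3, Tlr2, Trem1 and Zap70. Promoter windows replaced planned protein sequences, not used here. The other settings tried were RLE factors, library totals only, no low-count filter, DESeq2 1.42.0, limma-voom (limma 3.58.1), the 6 libraries alone, dispersion estimated first, a replicate block, a 2-fold null, and each library left out.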

Additional observations from a re-analysis of the deposited data

How the results depend on the processing

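Scaling mattered most. Scaled by library totals only, 4104 genes were higher in CD11b+ cells and 11816 lower, 2367 and 7295 by 2-fold or more, and medians turned to -0.572 for Polycomb, -0.48 for MLL/COMPASS, -0.392 for demethylases, -0.566 for deacetylases, -0.374 for interferon-stimulated and -0.578 for megakaryocyte genes. Of the genes named, Lcp2 (-0.44) turned sign. Cxcr4, Gzma, Irf8 and Klra8, which did not pass, passed as lower under that scaling, and Gzma passed as higher without CD11b+ replicate 3; every other call named held under each alternative, the test against 2-fold aside. Under the other alternatives the counts stayed within 1.5 times. Relative log expression factors gave 7307 and 7662, DESeq2 7093 and 7408, and limma-voom 7415 and 7804. The 6 libraries alone gave 6246 and 6926 of 15332 tested. Without the low-count filter, 8784 of 31458 genes tested were higher and 8344 lower, so that higher genes were the more numerous there. With any 1 library left out, between 6737 and 7061 genes were higher and 7427 to 7663 lower. Elsewhere the list medians that changed sign were those near 0 in the main fit (megakaryocyte 0.032, Polycomb 0.04, deacetylases 0.046). In a further 53 cases a list median moved, without changing sign, by more than its SD over same-numbered library pairs. The megakaryocyte median was -0.325 in the 6 libraries alone, no longer near 0. With 1 library left out it ran from -0.0728 to 0.0649, the Polycomb median from -0.0304 to 0.122 and the deacetylase median from -0.00189 to 0.0768. A test against a 2-fold change called 3076 and 3483 genes. Fitting the replicate number as a block gave 7211 and 7722. Same-numbered libraries of the 2 populations correlated in their deviations at 0.124, 0.17 and 0.074, each higher than with the other numbers, a hint from the data, but the labels do not say what a number shares, so the libraries were not treated as paired. Genes under about 1 CPM rest on few reads, and near copies can share them.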

Other observations

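Integrin, selectin and BCL2 family genes went in both directions. Among 12 leukocyte integrin and selectin genes, 4 were higher and 8 lower in CD11b+ cells (median -0.40). Of all genes tested, 35.2% were higher and 37.7% lower. Itgb2, the beta 2 subunit that pairs with CD11b, was 2.9-fold higher (3314 ± 43 CPM in CD11b+ cells against 1144 ± 1.8 in CD3e T cells) and Itgb2l, a beta 2-like gene of mouse neutrophils, 21.7-fold (1419.5 ± 7.6 CPM in CD11b+ cells against 65.5 ± 0.54 in CD3e T cells). Itgae, the CD103 gene of tissue-resident T cells, was 42.9-fold lower, at 29.4 ± 1.5 CPM in CD3e T cells. Itga4, a subunit of the VCAM-1 receptor, was 2.08-fold lower.

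The 12 BCL2 family genes were 4 higher and 8 lower, beside 35.2% higher and 37.7% lower of all genes tested. Bcl2, the survival gene of resting lymphocytes, differed most of the 12 on the log2 scale, with 8.99, 9.49 and 10.5 CPM in CD11b+ cells and 155, 155 and 158 in CD3e T cells (16.1-fold lower, SE of the log2 fold change 0.079, edgeR adjusted p = 4.4e-71). Bid was 2.06-fold and Bbc3, which encodes PUMA, 2.02-fold higher. The Bcl2a1 copies Bcl2a1a, Bcl2a1b and Bcl2a1d were lower, but their reads cannot be assigned with certainty. The 14 interferon-stimulated genes were 8 higher and 6 lower, against 4 higher and 9 lower when scaled by library totals only. The largest difference was Ifitm6, with 3209, 3255 and 3160.2 CPM in CD11b+ cells and 205, 208 and 204 in CD3e T cells (15.6-fold higher). Ifitm3, which restricts viral entry, was 2.9-fold higher. Ifit1 (-0.26) and Mx1 (-0.31) had small negative log2 fold changes.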
